A study of Mus musculus with 4 samples.

Results

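The genes described here are 126 autosomal long non-coding RNA (lncRNA) genes that were expressed in mouse T helper 17 (Th17) cells. They were chosen by their measured level: a gene entered the set if GENCODE M21 types it as lincRNA or antisense, if it lies on an autosome and if it reached at least 3 TPM in each of 4 RNA-seq libraries. TPM is the count of a gene divided by its exon length and scaled to the same total over all genes in each library. Malat1, Neat1, Mir155hg, Mir17hg, Pvt1, Gas5, Zfas1 and the Snhg genes were left out by name. The rule kept 126 of 6324 candidate genes, 67 typed lincRNA and 59 typed antisense, out of 50600 genes in each table. Since the rule used the levels, the levels below are a description and carry no test against other genes.

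The 4 libraries form 1 group of Th17 primary cells of strain C57BL/6NJ, numbered as biological replicates 1 to 4. By the labels the cells were differentiated from CD4 T cells, and neither age nor sex is given. All 4 carry the same donor entry, and the table headers name a 24 hour sample. The assay is labelled as total RNA-seq, yet the linked library protocol is for poly(A)+ RNA by its name, and nothing says whether animals were pooled. No treated, mutant or undifferentiated cells were included, so nothing below compares conditions, and p-values measure the spread between these 4 libraries alone.

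An lncRNA is a transcript with exons, a cap and usually a poly(A) tail but without a recognised long reading frame. Some act in the nucleus at their own locus, some bind proteins or microRNAs in the cytoplasm, some are only the carrier from which a small RNA is cut, and for many the act of transcription rather than the RNA is thought to matter. Many start beside a protein-coding gene and run the opposite way from a shared promoter. In T cells, lncRNA genes are known for being more restricted to a cell type than coding genes.

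Total counts in replicates 1 to 4 were 41360302, 19332509, 34979616 and 48558772. The libraries differed in sex-linked genes: Xist, the RNA that silences 1 X chromosome in female cells, was at 0.916, 1.01, 154 and 152 TPM, and Ddx3y, a Y-linked RNA helicase, was at 77.8, 58.9, 0.240 and 0.0925 TPM. Replicates 1 and 2 therefore stood apart from replicates 3 and 4 in these genes, although the labels give 1 donor entry. Summed over their marker lists, Th17 markers reached 1904 to 2064 TPM and T cell markers 4007 to 4100 TPM, whereas B cell, myeloid, CD8 or NK and erythroid markers each stayed at or below 0.586 TPM.

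The set was a group of low-level genes with a few high ones. Its median level was 7.84, 8.14, 7.89 and 7.68 TPM in replicates 1 to 4, against 38.3, 37.5, 37.1 and 37.4 TPM for the 8854 autosomal protein-coding genes that passed the same floor. The medians of the 4 libraries lay close together in both classes. Of the 126 lncRNA genes, 23 had a mean below 5 TPM, 77 were below 10 TPM, 13 reached 50 TPM and 6 reached 100 TPM. Among the coding genes, 1984 of 8854 reached 100 TPM.

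**Figure D1:**
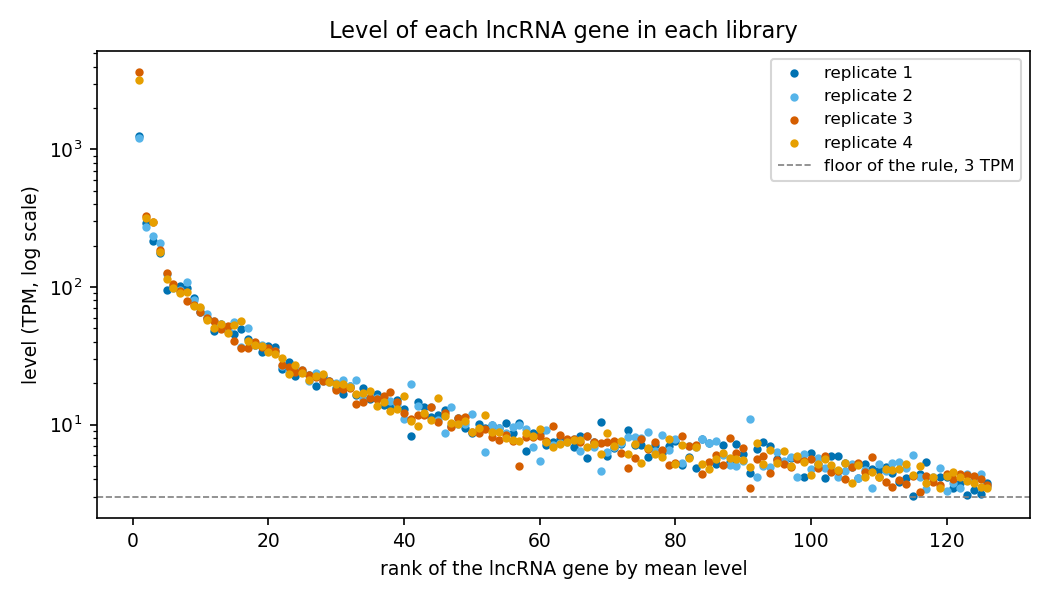
Level in TPM (log axis) of each of the 126 lncRNA genes, ordered by mean level, with 1 point for each of the 4 libraries. The highest gene, Gm42418, is higher in 2 libraries than in the other 2, and 77 genes have a mean below 10 TPM, close to the floor of 3 TPM drawn as a dashed line.

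**Figure D2:**
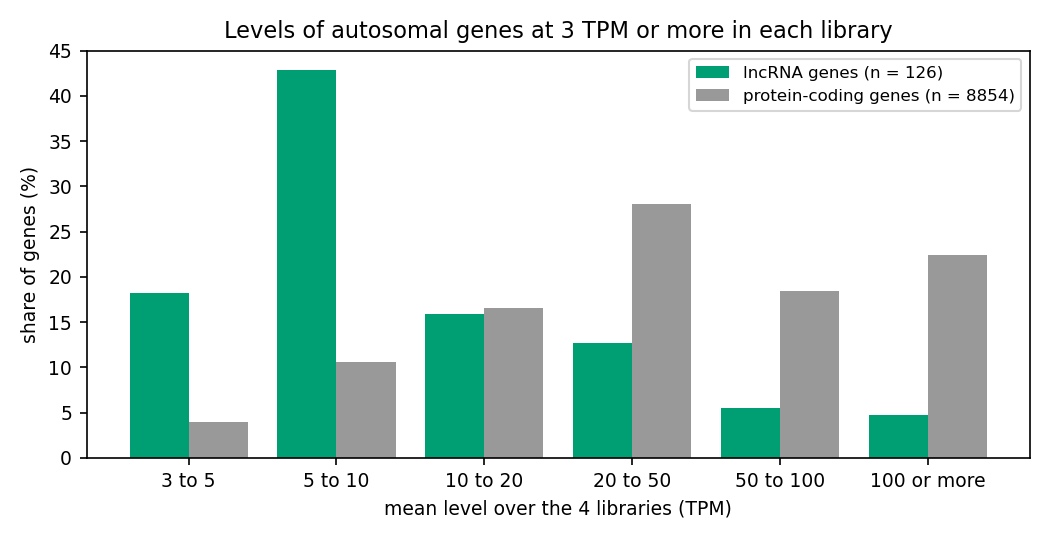
Share of genes (percent) in each range of mean TPM, for the 126 lncRNA genes and the 8854 protein-coding genes that passed the same floor. The range of 5 to 10 TPM holds the most lncRNA genes (54 of 126), and that of 20 to 50 TPM the most coding genes (2486 of 8854).

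The level of the whole set turned on 2 neighbouring genes on chromosome 17. All 126 genes together made up 0.392%, 0.398%, 0.642% and 0.599% of TPM in replicates 1 to 4, but without Gm42418 and Gm26917 the others made up 0.246%, 0.253%, 0.247% and 0.248%. The higher share in replicates 3 and 4 therefore came from these 2 genes. Gm42418 alone held 31.8% and 30.4% of the set's TPM in replicates 1 and 2 and 57.0% and 53.6% in replicates 3 and 4.

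Gm42418 (chr17:39846958-39848788, plus strand, mm10, 1 exon of 1831 bases) was at 1246, 1209.5, 3658 and 3211 TPM. Replicates 3 and 4 were both above replicates 1 and 2 without overlap, the highest library at 3.02 times the lowest. RefSeq lists the locus as Rn18s-rs5, a pseudogene related to 18S ribosomal RNA. Of its 50-base words, 94.9% are also found in transcripts of another gene. The match is most often to CT010467.1, typed as ribosomal RNA, on the minus strand of chromosome 17, at 0.0584 TPM in the mean. Whether this opposite-strand match is a second place in the genome was not examined. The deposited counts leave out reads with several mapping places. How many reads of Gm42418 were lost in this way was not tested, so its level is uncertain. Gm26917 lies just upstream on the same strand (chr17:39843013-39846341, 1 exon) and was at 216, 236, 299 and 299 TPM, also higher in replicates 3 and 4 than in replicates 1 and 2. Mitochondrial 12S ribosomal RNA, mt-Rnr1, was at 324, 367, 398 and 371 TPM. The split of these 2 genes fell along the same libraries as Xist and Ddx3y, and the part of that difference between libraries in their levels was not tested.

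Variation between libraries was tested for every gene with a mean of at least 10 counts, as the negative binomial deviance around 1 level at edgeR's trended dispersion, one-sided, with Benjamini-Hochberg adjustment over all 12849 genes. Over all genes tested, 0.272% passed an adjusted p of 0.05. In the set, 3 of 126 genes passed: Gm42418 (adjusted p = 6.89e-24), Gm42047 (1.45e-08) and Gm26917 (4.23e-05). All 126 were tested, but a gene that fell below 3 TPM in any library could not be in the set, so the count is a description. Without replicate 1, Gm26917 no longer passed (edgeR adjusted p = 0.0618). With a common dispersion, 6 genes of the set passed and 356 of all genes (2.77%). At an unadjusted p below 0.05 the set held 8 genes (6.35%), against 3.77% of all genes tested and 2.55% of coding genes at the floor. In bulk RNA, a higher count from more cells that express a gene and from more RNA per cell cannot be told apart.

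Gm42047 varied along other libraries. It was at 49.5, 36.7, 36.1 and 57.0 TPM, high in replicates 1 and 4 and low in replicates 2 and 3. The gene (chr8:121833247-121841178, plus strand) has 5647 exon bases. Of its 50-base words, 64.8% also occur in transcripts of another gene, most often the lincRNA gene Gm47761. Gm47761 was at 0.714, 0.802, 0.502 and 1.35 TPM, highest in replicate 4 as well but lower in replicate 1 than in replicate 2. Reads shared between the copies were not counted, and the level of Gm42047 is uncertain for that reason.

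**Figure D3:**
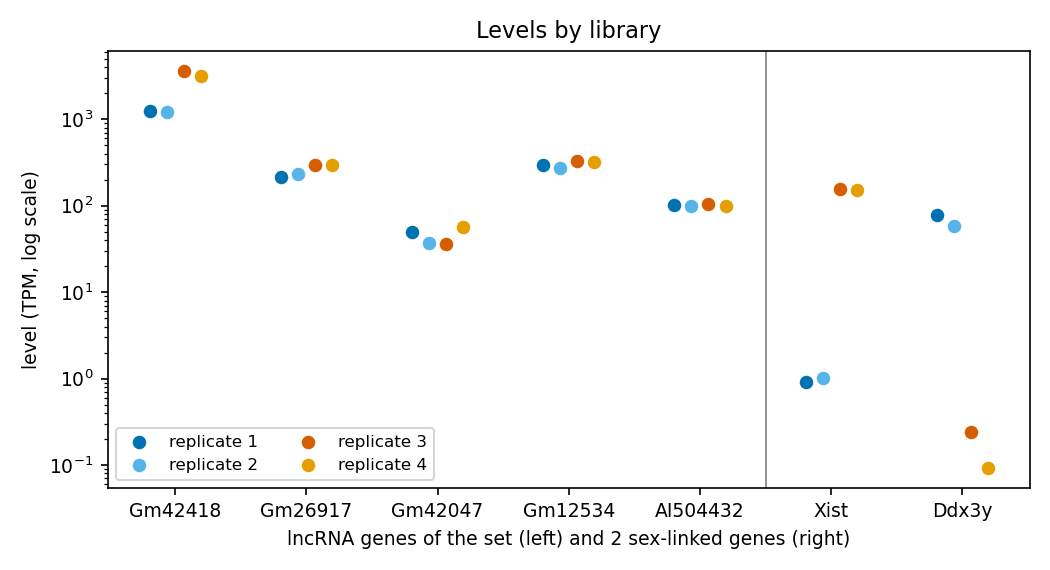
Level in TPM (log axis) of 5 lncRNA genes of the set and of Xist and Ddx3y, with 1 point for each library. Gm42418 and Gm26917 are higher in replicates 3 and 4, as Xist is, Gm42047 is higher in replicates 1 and 4, and AI504432 is level across the 4 libraries.

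The other genes among the 10 with the smallest p did not pass the adjusted threshold at edgeR's trended dispersion. Gm10451 was at 7.83, 7.90, 4.39 and 5.18 TPM, lower in replicates 3 and 4 than in replicates 1 and 2 (edgeR adjusted p = 0.574). 1700113A16Rik, antisense to the transcription factor gene Mef2d, ran from 5.00 TPM in replicate 3 to 10.3 TPM in replicate 1. 1810044D09Rik stood at 19.9 TPM in replicate 2 and between 8.28 and 11.1 TPM in the others. A530017D24Rik was lowest in replicate 2, at 5.42 TPM, and between 8.23 and 9.30 TPM in the others. 2610035D17Rik was highest in replicate 3, at 8.06 TPM, and 1600020E01Rik ranged from 4.46 to 7.04 TPM.

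The genes of the set differed in their spread between libraries. The coefficient of variation, the SD as a percentage of the mean, had a median of 11.7% over the set and 4.63% over coding genes at the same floor. The lncRNA genes had fewer counts, with a median mean count of 137 against 1789. Between 3 and 10 TPM the medians were 14.9% for 77 lncRNA genes and 8.58% for 1289 coding genes, at median mean counts of 91 and 325.5. The coefficient was at most 10% in 48 genes of the set and above 20% in 18. 5430416N02Rik, at 20.8, 20.3, 20.8 and 20.6 TPM, had the smallest (1.24%) and 4930570N18Rik, at 4.45, 10.9, 3.47 and 4.96 TPM, the largest (56.7%). The latter is among the 3 shortest of the set, with 332 exon bases and 21 counts in replicate 2.

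The second highest gene lies opposite the cytokine gene Il21. Gm12534 (chr3:37231333-37232469, plus strand, 2 exons, 469 bases) was at 294, 275, 331 and 319 TPM, or 305 ± 25.2 TPM (SD, n = 4). All of its exon bases lie within exons of Il21, which is read from the minus strand and encodes interleukin 21, a cytokine of Th17 and follicular helper T cells. Il21 was at 202, 216, 224 and 196 TPM. Gm12534 was the higher of the 2 per exon length in every library, over a far shorter model than the 5259 exon bases of Il21. Gm12534 had 1680, 746, 1614 and 2182 counts and Il21 had 12912, 6581, 12236 and 15030.

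The counting used the strand of the reads, which bears on such antisense genes. In all, 70 of the 6324 candidates have at least 50% of their exon bases antisense to exons of a coding gene at 50 TPM or more, and 6 of these are in the set. Among the other 64, 35 had no count in any library and 59 were below 1% of the opposite gene's TPM, with 4.12% as the highest. The 6 in the set were between 2.06% (Gm17092, opposite Hnrnpd) and 146% (Gm12534). The values in between were 7.50% for A930015D03Rik opposite H2-T22, 8.44% for Gm15491 opposite Mgea5, 9.51% for 9130221H12Rik opposite Gsk3a and 12.8% for Gm12764 opposite Lsm14a. The floor of 3 TPM separates the 6 from the other 64, so the gap in shares is largely set by the rule. Over all 70 the median was 0.00217%. Carry-over of reads from the opposite strand was not tested.

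The next genes of the set are hosts of small RNAs. Epb41l4aos, a short spliced lncRNA whose M21 model holds a small nucleolar RNA gene, Gm23639, was at 178, 209, 187 and 179 TPM. Its nearest coding gene, Epb41l4a, lies 341 bases away and had a mean of 0.00624 TPM from 1 count. The lncRNA and the neighbour after which it is named were thus at very different levels.

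Mir142hg (chr11:87755577-87757270, plus strand, 269 exon bases) was at 95.8, 124, 126 and 115 TPM. It is the host of Mir142, a microRNA of blood cells, and the 5p and 3p arms cut from it are shown because they are what this RNA is known for. They are given with their seeds (bases 2 to 8) in capitals, from RefSeq on GRCm38.p6.
mmu-miR-142a-5p: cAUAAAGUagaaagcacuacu
mmu-miR-142a-3p: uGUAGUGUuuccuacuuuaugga
The 2 arms have different seeds, AUAAAGU and GUAGUGU. The count of the host gene measures the remaining longer RNA and not the mature arms. Its nearest coding neighbour, Tspoap1, was at 0.502 ± 0.197 TPM (SD, n = 4).

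Small nucleolar RNA genes lie on the same strand within 3 genes of the set. Besides Epb41l4aos, Rab26os holds Snord60 and was at 42.1, 50.1, 36.2 and 40.6 TPM, and 2700038G22Rik holds Snord93 and was at 25.2, 26.8, 27.1 and 30.5 TPM. Together with Mir142hg, 4 of 126 genes hold an annotated small RNA on their own strand, and their median level was 78.8 TPM. Rab26, the coding gene for which Rab26os is named, was at 0.0681 ± 0.0592 TPM (SD, n = 4).

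Beside the genes left out by name, such as Malat1, Mir155hg and Pvt1, which passed the floor in all 4 libraries, the set held 4 genes from a list of described lncRNAs. That list held 34 genes that could have entered the set by type and chromosome; 4 did, 12 had counts but missed the floor, and 18 had no count. The highest of the 12 was Airn, an imprinted antisense RNA, at 2.66, 1.74, 2.07 and 2.80 TPM. Of 6 eligible genes in a list of microRNA hosts, Mir142hg alone was in the set, 1 was counted below the floor and 4 had no count.

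The 4 described genes of the set are Epb41l4aos, 2900097C17Rik, 1700020I14Rik and Tug1. 2900097C17Rik, named Norad in RefSeq, binds Pumilio proteins, which repress messenger RNAs, and is known for its part in keeping chromosome number stable. It was at 83.4, 80.0, 73.9 and 72.3 TPM. The deposited model covers 1149 bases (chr2:156391831-156392979, minus strand), whereas the longest M21 transcript has 4915, so the level rests on a part of the RNA. In addition, 39.5% of its 50-base words occur in transcripts of another gene, most often Gm7292, which had 1 count in each of replicates 1 and 4 and none in the others. The words were taken from the M21 transcript, and whether the shared ones lie in the counted part was not examined.

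The Pumilio element, TGTANATA on the transcript's strand, occurs 11 times in that Norad transcript. Rab10os, with 4, is next in the set. At least 1 element is present in 25 of the 126 longest transcripts (19.8%) and in 31.8% of those of coding genes at the same floor, which are longer. Per kb of transcript over each class, the set held 0.178 elements and the coding genes 0.125, and the 11 of Norad are part of the former. Windows around 4 of the 11 are shown because the repeated element is the feature Norad is known for, with the element in capitals and positions 1515, 1821, 2434 and 2746 of the transcript as their first bases.
Norad window at 1515: gactgctgTGTATATAgtggacaa
Norad window at 1821: gtgtatacTGTATATAatggacaa
Norad window at 2434: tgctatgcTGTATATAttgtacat
Norad window at 2746: tactactaTGTATATAggggacaa
The windows at 1515, 1821 and 2746 end with the same letters.

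1700020I14Rik, named Oip5os1 in RefSeq and known as Cyrano, carries a conserved site for the microRNA miR-7 and is known for causing its decay. It was at 38.2, 38.1, 39.6 and 37.9 TPM over 8306 exon bases (chr2:119594297-119607502, plus strand), or 38.5 ± 0.795 TPM (SD, n = 4). The seed match GTCTTCC occurs in 17 of the 126 longest transcripts of the set (13.5%) and in 29.6% of those of coding genes at the same floor. Cyrano's transcript holds 2, and the second is shown with the microRNA because it pairs over nearly the whole length.
mmu-miR-7a-5p: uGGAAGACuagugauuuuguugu
Cyrano window at 2934: aacaacaaaatcaccaatGTCTTCCat
Capitals mark the seed and its match. An alignment of this window with the reverse complement of the microRNA gave 22 identical bases of 23, and the window around the other match gave 13. The level of miR-7 itself was not analysed here.

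Tug1, a long lncRNA found in many tissues, was at 36.6, 34.5, 34.5 and 32.5 TPM and is the longest of the set by exon length, with 8325 bases. Its start overlaps that of Morc2a, a coding gene on the other strand, at 66.4 to 73.0 TPM over the 4 libraries. In each library Tug1 was close to 50% of Morc2a, with a mean of 49.9%. The next longest genes are 1700020I14Rik and 2310001H17Rik, the latter with 7241 bases and 4.54 ± 0.473 TPM (SD, n = 4).

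The remaining genes among the 12 highest are little studied or differ in type between annotations. AI504432 lies 1434 bases from Kcna3, the gene of a potassium channel of T cells, and was at 103, 98.9, 105 and 98.2 TPM. Kcna3 itself was at 100.2, 98.5, 103 and 100.1 TPM. AI504432 and Kcna3 were thus at nearly the same level per exon length, and they lie on the same strand. AU020206 was at 103, 95.4, 94.1 and 91.2 TPM, and its nearest coding gene, Akap13, at 13.6 ± 0.377 TPM (SD, n = 4).

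Gm19585 was at 98.5, 108, 79.8 and 92.2 TPM. Its deposited model covers 784 exon bases, whereas the longest M21 transcript has 1616, so this level too rests on a part of the RNA. It lies on chromosome 17, with no coding gene closer than Satb1, 315999 bases away, which encodes a chromatin organiser of T cells and was at 183 ± 3.50 TPM (SD, n = 4). Gm31597, at 48.3, 56.7, 56.9 and 50.3 TPM, overlaps exons of Sult2b1 on the other strand, and Sult2b1 was at 1.18 to 1.76 TPM. AW112010, named here after its values were seen, was at 48.2, 49.1, 52.5 and 46.0 TPM.

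RefSeq gives a protein for 7 of the 126 genes, so their type depends on the annotation. They are 1810058I24Rik, Tmem250-ps, Gm6712, Gm39469, Gm32856, D930016D06Rik and Gm20939, with a median of 12.2 TPM. 1810058I24Rik encodes a small mitochondrial protein and was at 66.1, 69.9, 65.7 and 71.2 TPM. Tmem250-ps was at 60.0, 63.9, 59.7 and 57.4 TPM. D930016D06Rik, listed as Thoc2l, was at 7.69 ± 0.553 TPM (SD, n = 4), and Gm39469, Gm32856 and Gm20939 had means of 12.2, 9.34 and 5.72 TPM. In RefSeq 79 of the 126 are lncRNA genes, 3 are pseudogenes, and 37 have no entry that matched by name and place.

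Gm10076 is 1 of these pseudogenes. It is among the 3 shortest genes, with 384 exon bases, and was at 45.3, 55.3, 40.5 and 52.8 TPM. Of its 50-base words, 69.9% occur in another gene's transcripts, most often those of the ribosomal protein gene Rpl41, at 2871 ± 233 TPM (SD, n = 4). Its level is therefore uncertain. Over the set, at least 25% of the words of 24 genes occur in another gene's transcripts; in 21 of them most such matches were to a gene on the other strand, and in 3, Gm10076, Gm42047 and 2900097C17Rik, to one on the same strand.

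By position, 45 of the 126 genes (35.7%) start head-to-head with a protein-coding gene, that is, on the opposite strand with the annotated starts within 1000 bases. The share was 52.5% of the 59 antisense genes and 20.9% of the 67 lincRNA genes. Among candidates below the floor it was 31.3% of the 1369 with a count and 12.7% of all 6198, and among coding genes at the floor 18.9% had such a neighbour. In 26 pairs the starts lay apart and in 19 they overlapped, with a median distance of 187 bases. Of the other genes, 48 were intergenic, 20 overlapped exons of a coding gene on the other strand, 9 lay opposite an intron and 4 overlapped a coding gene on their own strand. Starts are those of the annotation and were not measured.

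In most pairs the lncRNA was far below its partner. The difference lncRNA minus partner in log2(TPM + 1) had a median over the 45 pairs of -2.59, -2.56, -2.41 and -2.54 in replicates 1 to 4. The lncRNA was lower in all 4 libraries in 37 pairs, higher in all 4 in 6 and mixed in 2. The median partner was at 46.6 TPM and the median lncRNA of a pair at 6.46 TPM. Since the floor bounds the lncRNA but not the partner, these differences are a description. Of the partners, 42 of 45 passed the floor themselves.

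**Figure D4:**
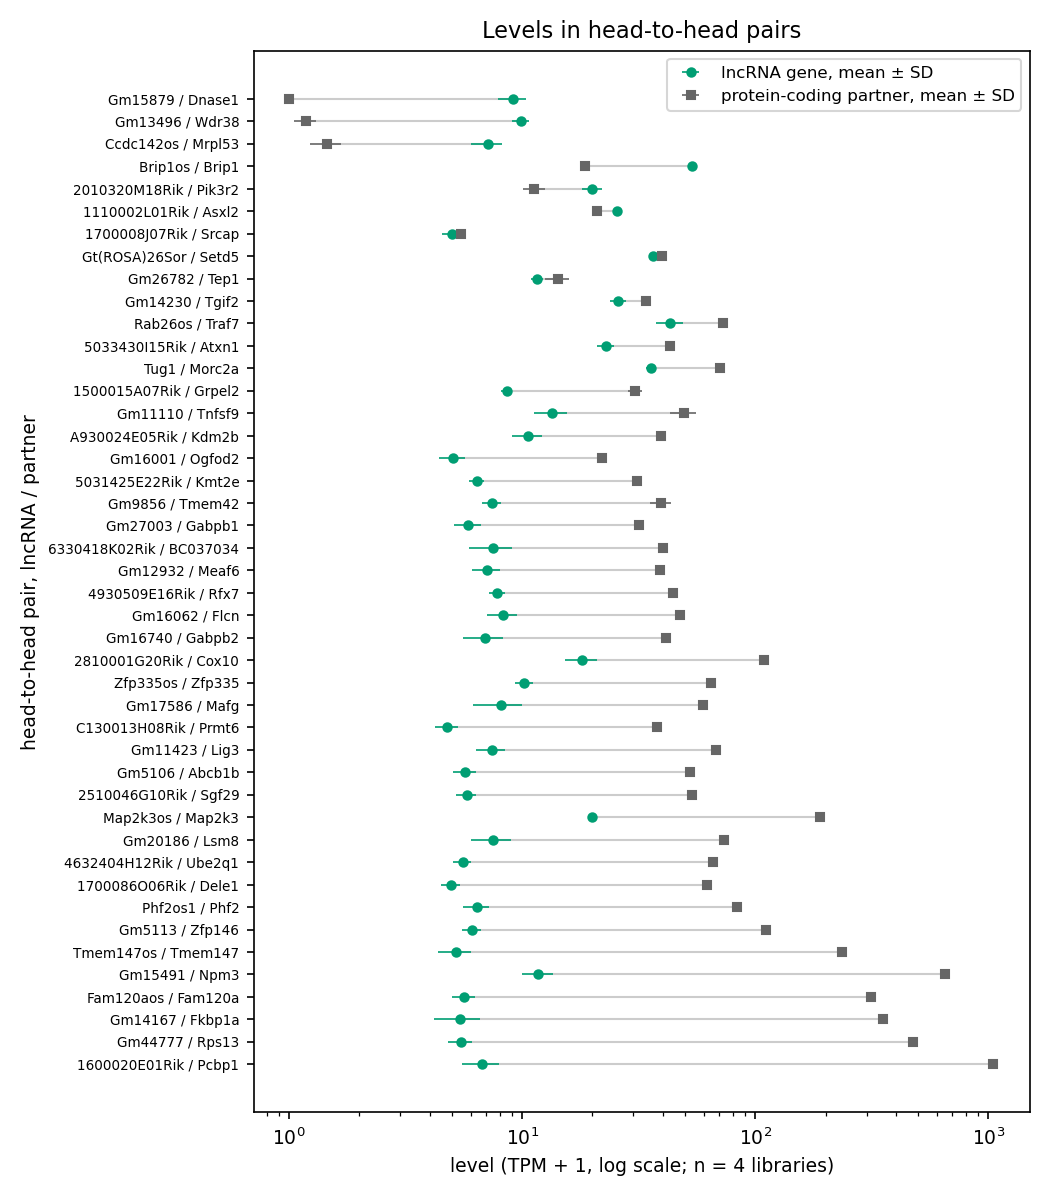
Mean level (TPM + 1, log axis) with SD over 4 libraries for the lncRNA gene and its coding partner in the head-to-head pairs, ordered by their difference, with 1 of the 45 pairs not shown. In the top 6 pairs the lncRNA is the higher, and at the bottom 1600020E01Rik lies far below Pcbp1.

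At the low end, 1600020E01Rik was at 7.04, 4.95, 4.46 and 6.51 TPM beside Pcbp1, an RNA-binding protein gene at 1043, 1039, 1053 and 1064 TPM. The log2 difference was -7.30 ± 0.26 (SD, n = 4). Gm44777 was at 4.46 ± 0.653 TPM beside the ribosomal protein gene Rps13 at 474 ± 23.3 TPM (SD, n = 4). Gm14167 was at 4.38 ± 1.21 TPM beside Fkbp1a, the FKBP12 gene, at 353 ± 5.09 TPM (SD, n = 4). Fam120aos was at 4.64 ± 0.633 TPM beside Fam120a at 314 ± 9.92 TPM (SD, n = 4). In each of these 4 pairs the lncRNA was at 1.48% of its partner or less.

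At the high end, Brip1os was at 53.5, 52.3, 49.6 and 54.1 TPM beside Brip1, a DNA helicase of repair, at 17.6, 17.7, 16.6 and 18.4 TPM. The log2 difference was 1.52 ± 0.02 (SD, n = 4), and the 2 genes were lowest in the same library, replicate 3. Gm15879 was at 6.42, 9.29, 8.08 and 8.73 TPM beside Dnase1, which had no count; 3 counts over the 4 libraries would equal 0.0227 TPM. Gm13496, at 8.90 ± 0.826 TPM, lies beside Wdr38, with a highest value of 0.286 TPM, and Ccdc142os, at 6.12 ± 1.09 TPM, beside Mrpl53 at 0.454 ± 0.221 TPM (SD, n = 4). Starts overlap in these last 3 pairs, by 905, 782 and 14 bases, and the annotated exons of Gm15879 and Dnase1 share 504 bases.

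Other pairs, named after their values were seen, lay closer together. Gt(ROSA)26Sor, the Rosa26 locus used to carry transgenes in mice, was at 37.0, 34.4, 35.8 and 34.0 TPM and starts 32 bases from Setd5, a chromatin regulator gene, at 40.3, 36.8, 40.7 and 37.7 TPM. 1110002L01Rik was at 24.5 ± 0.548 TPM beside Asxl2 at 19.9 ± 0.698 TPM (SD, n = 4), higher than its partner in all 4 libraries.

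None of the 45 partners is in a list of 217 T cell genes, of which 216 were measured. Within 50000 bases of a gene of that list lay 6 genes of the set, with Gm12534 at Il21 the closest. 2010320M18Rik, at 16.7, 21.2, 18.3 and 19.6 TPM, lies 30626 bases from Il12rb1, a subunit of the interleukin 12 and 23 receptors, at 293 ± 6.73 TPM (SD, n = 4). A930024E05Rik, at 9.57 ± 1.58 TPM, lies 16729 bases from the calcium channel gene Orai1, at 87.5 ± 1.35 TPM (SD, n = 4). Gm32255 lies near Egr2, Gm12932 near Zc3h12a and 2310001H17Rik near Cd69, and these 3 were at 7.04, 6.04 and 4.54 TPM in the mean. Distance alone was measured, and no relation between these neighbours was tested. The same shares were not counted over other candidates or coding genes. These numbers therefore do not show whether the set lies nearer to T cell genes than other genes do.

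A pair of genes on chromosome 17 showed a repeated promoter. BC002059 was at 33.8, 37.8, 36.9 and 37.4 TPM and Gm6712 at 22.4, 20.7, 20.7 and 23.4 TPM, and both overlap the annotated Chd1 gene on the same strand, which was at 105 ± 3.46 TPM (SD, n = 4). Their RefSeq promoter windows (250 bases before to 50 after the start, GRCm38.p6, plus strand) are chr17:16951286-16951585 and chr17:17294193-17294492. Both are shown because each holds 3 TTCCGG sites spaced by 60 and 61 bases. Capitals mark TTCCGG, with TTCCGGAA in 2 of the 3 places, and the CCAAT box or its reverse complement.
BC002059 promoter: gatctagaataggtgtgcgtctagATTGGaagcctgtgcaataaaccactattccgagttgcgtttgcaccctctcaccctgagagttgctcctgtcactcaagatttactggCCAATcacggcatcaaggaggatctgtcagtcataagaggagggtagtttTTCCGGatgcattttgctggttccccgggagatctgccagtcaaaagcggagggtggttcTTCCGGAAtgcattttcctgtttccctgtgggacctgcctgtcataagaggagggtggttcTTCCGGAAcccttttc
Gm6712 promoter: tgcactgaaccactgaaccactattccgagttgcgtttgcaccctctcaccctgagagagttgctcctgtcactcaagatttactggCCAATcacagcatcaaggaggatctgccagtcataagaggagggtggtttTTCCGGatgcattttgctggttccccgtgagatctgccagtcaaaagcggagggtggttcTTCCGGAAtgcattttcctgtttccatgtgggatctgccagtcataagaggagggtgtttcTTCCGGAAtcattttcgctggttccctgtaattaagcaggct
The windows were identical at 261 of 328 columns (79.6%) of a global alignment. TTCCGG is the reverse complement of the ETS core CCGGAA, which ETS family factors bind. Counted on both strands with overlap, each window holds 5 matches at these 3 places, as TTCCGGAA counts on both strands. Of 32851 promoters of the table, 12 (0.0365%) hold at least 5. The 2 windows were chosen after their letters were seen, for the most such matches in the set, so this share is a description. A match is a description of letters and not a measured site.

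For 60 of the 126 genes the RefSeq table has a promoter window on the same strand with a start within 500 bases. In 66.7% of these the ratio of observed to expected CpG was above 0.6, against 81.8% of 6576 coding genes at the floor, 18.1% of 1954 candidates below it and 35.8% of all 32851 promoters. The 24 windows of head-to-head genes were at 87.5% and the 36 others at 52.8%. Head-to-head genes start within 1000 bases of a coding gene's start, so the 2 shares describe position as well as the lncRNA.

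The motifs searched on both strands were GGGCGG (the GC box), CCGGAA (the core of ETS factors), CCAAT (the CCAAT box), TATAAA (the TATA box), TGACGTCA (CRE), AAGATGGC (YY1), GCATGCGC (NRF1) and TGANTCA (AP-1). The GC box was found in 79.2% of head-to-head windows, 50% of the others and 35.7% of all promoters. The ETS core was found in 50%, 25% and 14.9% in the same order, and CCAAT in 20.8%, 50% and 37.4%. CRE letters were in 4 of 60 windows (6.67%, against 1.79% of all promoters), YY1 letters in 3 (5.00% against 2.75%), TATAAA in 5 (8.33% against 13.6%) and AP-1 letters in 1 (1.67% against 7.81%). NRF1 letters were in none of the 60 and in 2.71% of all promoters. Coding genes at the floor had 3.89% for CRE, 5.85% for YY1, 6.14% for TATAAA, 3.98% for AP-1 and 6.78% for NRF1. Against these coding genes the set was lower for YY1 letters and higher for TATAAA, the reverse of the comparison with all promoters. Their shares for the GC box, the ETS core and CCAAT each lay between those of head-to-head and other windows. The ETS core was in 34.8% of them and in 35% of the whole set.

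**Figure D5:**
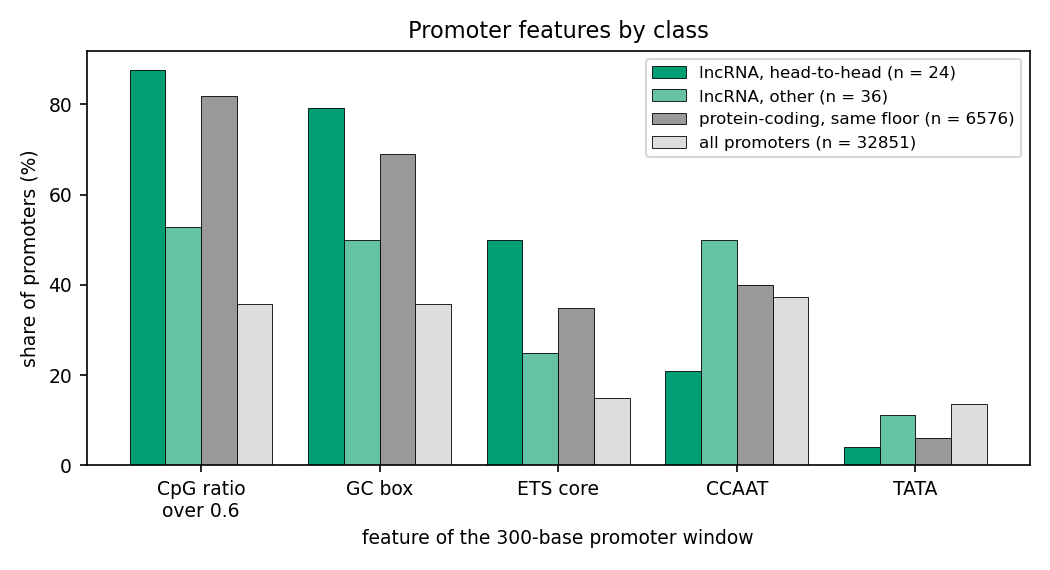
Share of 300-base promoter windows (percent) with a CpG ratio above 0.6 or with a motif on either strand, for head-to-head lncRNA genes, other lncRNA genes of the set, coding genes at the same floor and all promoters. The head-to-head windows show 79.2% with a GC box and 20.8% with CCAAT, and the other lncRNA windows 50% for both.

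The contrast is visible in 2 windows, chosen after their letters were seen: that of Fam120aos (chr13:48967862-48968161, plus strand), which faces Fam120a and is 86.7% G and C with 54 CpG, and that of Gm19585 (chr17:52149039-52149338, plus strand), which is 41.0% G and C with 2 CpG. Capitals mark the GC box or its reverse complement.
Fam120aos promoter: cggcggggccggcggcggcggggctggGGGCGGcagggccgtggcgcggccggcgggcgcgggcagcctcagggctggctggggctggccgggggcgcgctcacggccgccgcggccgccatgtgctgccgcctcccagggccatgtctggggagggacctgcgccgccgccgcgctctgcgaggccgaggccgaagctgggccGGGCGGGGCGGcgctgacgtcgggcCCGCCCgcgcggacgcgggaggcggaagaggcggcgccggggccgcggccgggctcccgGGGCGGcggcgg
Gm19585 promoter: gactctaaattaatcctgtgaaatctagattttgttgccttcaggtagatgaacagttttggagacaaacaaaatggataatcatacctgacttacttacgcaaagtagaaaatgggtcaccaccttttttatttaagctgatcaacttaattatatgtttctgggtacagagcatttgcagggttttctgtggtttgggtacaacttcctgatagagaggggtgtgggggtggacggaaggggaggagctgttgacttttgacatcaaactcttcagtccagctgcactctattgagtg
Fam120aos has 5 GC boxes and was at 4.64 TPM, whereas Gm19585 holds none of the motifs searched and was at 94.8 TPM in the mean.

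The lncRNA genes were short and had few exons. Their median exon length was 1312.5 bases against 4225.5 for coding genes at the floor, with a median of 3 exon blocks against 10, and 24 of 126 (19%) consisted of 1 block against 2.08%. A poly(A) signal, AATAAA or else ATTAAA, lay within the last 50 bases of the longest M21 transcript in 83 of 126 (65.9%), against 73.7% of coding genes. The ends of 3 genes among the higher ones, chosen after their letters were seen, show it in capitals.
Mir142hg end: cctcaacactAATAAAgaatggactggttt
1810058I24Rik end: tccAATAAAtagtagctacccattggaaaa
Brip1os end: aagcatctAATAAAaagttatatatattcc
Each of these ends carries AATAAA within its last 30 bases.

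At the floor, the members with the lowest minimum were Gm14167 (3.03 TPM in replicate 1), A930015D03Rik (3.10) and C130013H08Rik (3.16). Just outside it were 4930558J18Rik, at 3.04, 3.12, 3.00 and 4.02 TPM, AI480526, at 3.96, 3.91, 3.64 and 2.99 TPM, and 2900076A07Rik, at 4.45, 3.99, 2.99 and 3.79 TPM. Each of the 3 missed the rule in 1 library, and the first of them had a mean of 3.29 TPM. Gm14167 had 15 to 27 counts per library and C130013H08Rik, a longer gene, had 93 to 188. By chromosome, the set held 14 of 393 candidates on chromosome 11, 13 of 547 on chromosome 5, 13 of 544 on chromosome 7, 11 of 145 on chromosome 17 and 1 of 539 on chromosome 1.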

How the data were processed

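The authors deposited 1 table of read-pair counts per library, counted by featureCounts (version 1.4.6-p4) over exons of GENCODE M13 on mm10, reverse-stranded, both ends mapped and multi-mapping reads not counted, per the file headers. Exon length in bases is the authors' deposited Length column. No aligner is stated in the labels or headers. Totals ranged from 19332509 to 48558772 counts. Types and symbols came from GENCODE M21, which matched 50376 of 50600 genes.

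TPM was computed from counts and length over all genes. Variation between libraries was tested for genes whose mean count was 10 or more, with edgeR 4.0.16 (R 4.3.3, TMM scaling, trended dispersion, Benjamini-Hochberg). The test was also run on simulated counts drawn at this same dispersion. It recovered 77% of 100 genes changed 2-fold in 1 library and 93% of 100 changed 4-fold, with 4 false calls. As these counts follow the test's own model, they cannot show how it performs on the real spread between libraries. DESeq2 1.42.0, other dispersions, floors, distances and pseudocounts, and leaving out each library, were alternatives. Sequences are from RefSeq (GRCm38.p6) and GENCODE M21 transcripts.

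Genes named are the 12 highest, the 10 with the smallest p, listed described lncRNAs and microRNA hosts, the 4 extreme pairs at each end, the 3 at the floor, longest and shortest, and those with a RefSeq protein; others are marked or named by position. The members and lists were chosen with earlier results of these data known. The levels of 1 head-to-head pair are not reported here.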

Additional observations from a re-analysis of the deposited data

Results flagged for a closer look

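1 result among the 38 named genes had a library that stood apart relative to the range of its 4 values. 1700020I14Rik was at 39.6 TPM in replicate 3 and between 37.9 and 38.2 TPM in the other libraries. The gap was small beside the level, with an SD of 0.795 TPM at a mean of 38.5 TPM. In the edgeR test of variation its unadjusted p was 0.818. Over all 126 genes 5 (3.97%) had such a library, and chance gives about 1 in 20.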

How the results depend on the processing

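The number of genes in the set, 126, became 162 with a floor of 2 TPM, 87 with 5 TPM, 155 with the floor on the mean, 130 without mitochondrial genes in the TPM total, 132 with protein-coding genes alone in that total and 67 with lincRNA genes alone. Leaving out 1 library gave 129 to 135. The number of genes that varied, 3, became 6 with edgeR's common dispersion (Gm10451, 1700113A16Rik and 1810044D09Rik were added), and 2 to 3 on leaving out 1 library. Without Gm42418 and Gm26917, an alternative chosen after seeing the data, it was 1. The median level, 7.89 TPM, became 8.21 with the protein-coding total and ranged from 7.80 to 7.96 on leaving out 1 library. Head-to-head genes, 45, numbered 40 within 500 bases, 48 within 2000 bases and 42 with the partner also at the floor. The median log2 difference in pairs, -2.50, was -2.65 with a pseudocount of 0.1 and -2.03 with 5, and -2.55 to -2.49 on leaving out 1 library. With RefSeq starts within 100 bases, 65.4% of promoters were CpG-rich. The causes of these shifts were not tested. No paired analysis was possible because there is only 1 group, so no groups share replicate numbers. At the lowest depth, 3 counts in a gene of 1 kb equal 0.518 TPM.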
